A study of Rattus norvegicus with 48 samples.

Results

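The response of rat primary cortical cultures to the HIV-1 protein Tat was measured by RNA-seq in the presence of senicapoc, an inhibitor of the calcium-activated potassium channel KCa3.1. It is the comparison of 3 libraries of cultures given senicapoc (1 µM) and Tat (6 ng/mL) for 48 h (Tat-Senicapoc) with 3 libraries of cultures given senicapoc alone (Senicapoc), 6 of the 48 libraries of the series, chosen by their labels. Of the 30211 genes of the deposited table, 15890 were tested, those that reached 0.5 CPM in 3 or more of the 48 libraries. The cultures, mixed cells from the cortex of fetuses of Sprague-Dawley rats 18 days old, were treated after 21 days in vitro. Tat was added to the medium as the protein of residues 1-86, and no virus was present. The response was set against that to Tat without any compound (Tat and Control, 3 libraries each) and against that under 4-octyl itaconate (4OI, 250 µM; Tat-4OI and 4OI, 3 libraries each), a cell-permeable ester of the metabolite itaconate. Cultures given senicapoc, Tat and, for 24 h, cocaine (25 µM) are Tat-Cocaine-Senicapoc. All libraries come from 1 kind of culture, and the labels call the replicates triplicates without saying whether they were separate preparations. The p-values therefore measure the spread between these libraries, which may be technical.

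Tat is secreted by infected cells and is taken up by their neighbours in the brain. It activates microglia and astrocytes, in which the transcription factor NF-kB then switches on chemokines, cytokines and acute-phase genes, and it is toxic to neurons. KCa3.1, the product of Kcnn4, lets potassium out of the cell when calcium rises, and the resulting membrane potential favours further calcium entry. In the brain the channel is best known from microglia, where its inhibition lowers the release of inflammatory mediators.

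Depth, read off from the value of 1 read, was 24.7 to 29.1 M reads (M, mega) in Senicapoc and 19.5 to 22.3 M reads in Tat-Senicapoc libraries, without overlap. Mitochondrial genes held 7.71 to 8.65% of the signal in Senicapoc and 5.82 to 6.57% in Tat-Senicapoc libraries. The part of either difference in the results was not tested. Libraries of a group correlated on the log2 scale with a Pearson r of 0.981 to 0.996. Senicapoc replicate 2 stood apart (r of 0.981 with both others, which reached 0.996 with each other). It had more signal of inflammatory genes and less of some astrocyte genes: lipocalin Lcn2 was at 19.1, 327 and 55.1 CPM in Senicapoc replicates 1, 2 and 3, and S100b at 2005, 484 and 1949 CPM. Tat-Senicapoc replicate 1 also stood apart (r of 0.985 and 0.986 with the others, which reached 0.995). The labels call the cells neurons, but markers of other cell types were present as well. The summed signal of 27 neuronal markers was 7044 to 7594 CPM in Senicapoc libraries, that of 24 astrocyte markers 12517 to 20074 CPM, that of 18 markers of the oligodendrocyte lineage 1199 to 2343 CPM and that of 23 myeloid markers 846 to 1402 CPM.

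Tat changed inflammatory genes in the presence of senicapoc. Between Tat-Senicapoc and Senicapoc, 2540 of 15890 genes (16%) passed at a limma FDR below 0.05. Of these, 1722 were higher (10.8% of genes tested) and 818 lower (5.15%) in Tat-Senicapoc cultures, and 783 changed at least 2-fold. These shares, 10.8% higher and 5.15% lower, are those to set beside each count of a gene list below, also where they are not repeated. The 10 largest rises were those of Orm1, Cxcl13, Lcn2, Cxcl9, Cxcl6, Slpi, Cfb, Steap4, LOC299282 and Cd74. The astrocyte gene Ntsr2 and the border macrophage gene Cd209f were among the 10 largest falls. The count was 2446 without Senicapoc replicate 2 and 2680 without Tat-Senicapoc replicate 1, the libraries that stood apart. It was 1352 without Tat-Senicapoc replicate 2, 1326 without Tat-Senicapoc replicate 3 and 1271 without Senicapoc replicate 1. Quantile normalization called 1404 genes higher and 1427 lower, so the share of higher genes went from 67.8% to 49.6%. The limma test shares 1 estimate of the spread over all 16 groups, which gives more residual degrees of freedom than 3 libraries a side alone. With the compared groups alone the count was 1567. With 3 libraries a side the smallest two-sided p of an exact permutation test is 0.1.

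**Figure D1:**
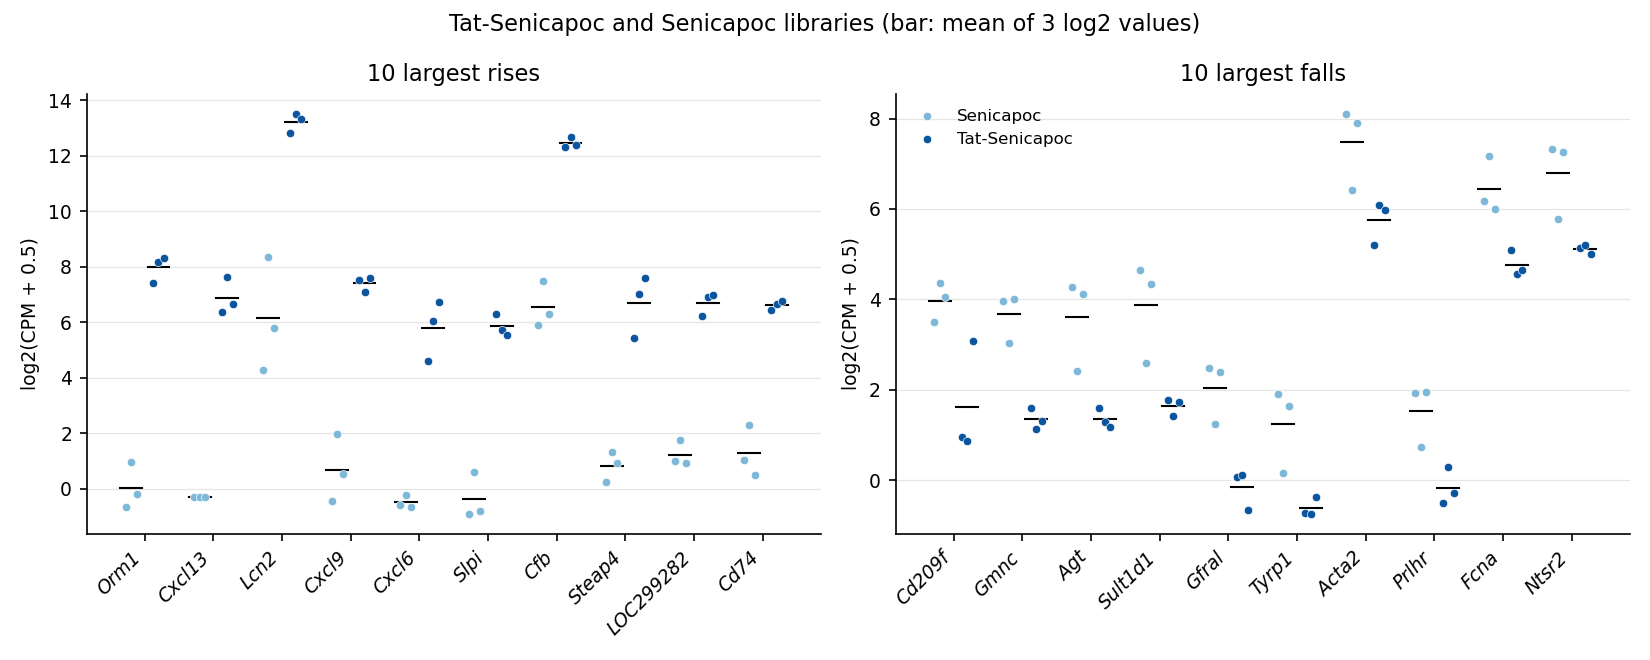
Expression of the 10 genes with the largest rises (left) and the 10 with the largest falls (right) between Senicapoc and Tat-Senicapoc cultures, on the log2(CPM + 0.5) scale. Each point is 1 library and each bar the mean of 3; no gene has overlapping groups, which the choice of genes required.

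The channel gene itself rose. Kcnn4 was at 1.0, 1.78 and 1.13 CPM in Senicapoc and 4.17, 4.34 and 3.78 CPM in Tat-Senicapoc cultures, and every Tat-Senicapoc library lay above every Senicapoc library (log2 fold change 1.37 ± 0.29 (SE), limma FDR 0.00121). Without the compound, Kcnn4 was at 1.15, 1.91 and 1.5 CPM in Control and 4.56, 6.3 and 6.33 CPM in Tat cultures (log2 fold change 1.63), and the difference between the responses was -0.26, 95% interval -1.08 to 0.57. Of 21 potassium channels and calcium entry genes tested, 6 rose and 0 fell, against 10.8% and 5.15% of all genes. Trpm2, a calcium-permeable channel opened by oxidative stress, was at 10.5, 22.6 and 11.1 CPM in Senicapoc and 50.6, 66.7 and 47.9 CPM in Tat-Senicapoc cultures (log2 fold change 1.94 ± 0.44 (SE), limma FDR 0.00234). Kcnj2, an inward rectifier, went from 5.45, 6.34 and 5.45 to 14.4, 14 and 16.1 CPM (log2 fold change 1.30 ± 0.23 (SE), limma FDR 0.000156). The groups of both genes were apart. Kcna5, a voltage-gated channel, was at 1.4, 1.28 and 1.51 CPM in Senicapoc and 2.03, 4.75 and 3.47 CPM in Tat-Senicapoc cultures (log2 fold change 0.99 ± 0.29 (SE), limma FDR 0.0186), but Kcna5 did not pass without Tat-Senicapoc replicates 2 and 3 and Senicapoc replicate 1 in turn (limma FDR 0.0579 to 0.148).

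The largest rise was that of Orm1, the acute-phase protein alpha-1-acid glycoprotein. It was at 0.134, 1.43 and 0.377 CPM in Senicapoc and 171, 289.5 and 319 CPM in Tat-Senicapoc cultures (log2 fold change 7.94 ± 0.62 (SE), limma FDR 4.64e-11). Lcn2, which withholds iron from bacteria and is made by reactive astrocytes, was at 19.1, 327 and 55.1 CPM in Senicapoc and 7249, 11714 and 10292 CPM in Tat-Senicapoc cultures (log2 fold change 7.08 ± 0.79 (SE), limma FDR 1.17e-07). Its Senicapoc libraries spread widely, with replicate 2 highest, but none came near the Tat-Senicapoc libraries. Slpi, an inhibitor of leukocyte proteases, went from 0.0334, 1.01 and 0.0686 to 77.1, 51.8 and 46.4 CPM (log2 fold change 6.22 ± 0.59 (SE), limma FDR 4.02e-09). Steap4, a metalloreductase induced by inflammation, went from 0.669, 2.01 and 1.37 to 42.6, 129 and 191 CPM (log2 fold change 5.86 ± 0.78 (SE), limma FDR 2.40e-06). Of 14 acute-phase and secreted defence genes tested, 13 rose and 0 fell, with a median log2 fold change of 3.40 where that of all genes was −0.0047. LOC299282, named in the table by its locus, rose from 1.5, 2.86 and 1.37 to 73.4, 119.8 and 126 CPM (log2 fold change 5.48 ± 0.54 (SE), limma FDR 1.09e-08).

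Chemokines, which draw leukocytes along a gradient, rose in 15 of 22 genes tested, with a median log2 fold change of 2.14. Cxcl13, which attracts B cells, was nearly absent without Tat, at 0.301, 0.309 and 0.309 CPM in Senicapoc and 81.1, 196 and 99.4 CPM in Tat-Senicapoc cultures (log2 fold change 7.18 ± 0.53 (SE), limma FDR 9.45e-12). The T cell attractant Cxcl9 was at 0.234, 3.36 and 0.926 CPM in Senicapoc and 182, 136 and 194 CPM in Tat-Senicapoc cultures (log2 fold change 6.73 ± 0.65 (SE), limma FDR 5.83e-09). Cxcl6, which attracts neutrophils, was at 0.167, 0.348 and 0.137 CPM in Senicapoc and 23.9, 65.3 and 104 CPM in Tat-Senicapoc cultures (log2 fold change 6.28 ± 0.86 (SE), limma FDR 4.27e-06). In all 3 genes the lowest Tat-Senicapoc library was far above the highest Senicapoc library. Ccl20, the ligand of CCR6, was at 0.10, 2.28 and 0.137 CPM in Senicapoc and 28.2, 42.8 and 46.2 CPM in Tat-Senicapoc cultures (log2 fold change 5.25 ± 0.54 (SE), limma FDR 2.10e-08). Ccl2, which attracts monocytes, was at 15.5, 111 and 17.5 CPM in Senicapoc and 315, 381 and 347 CPM in Tat-Senicapoc cultures (log2 fold change 3.45 ± 0.64 (SE), limma FDR 0.000303), with Senicapoc replicate 2 above the other Senicapoc libraries. Ccl3 was at 2.24, 1.37 and 1.77 CPM in Senicapoc and 3.37, 10.7 and 9.66 CPM in Tat-Senicapoc cultures (log2 fold change 1.75 ± 0.52 (SE), limma FDR 0.0203), but Ccl3 did not pass without Tat-Senicapoc replicates 2 and 3 and Senicapoc replicates 2 and 3 in turn (limma FDR 0.0528 to 0.118). The 1 chemokine that fell, Ccl17 (log2 fold change −0.47, limma FDR 0.0329), is named after its value was seen. Its level was low, with a mean of 0.439 CPM in Senicapoc and 0.179 CPM in Tat-Senicapoc cultures, both below 0.5 CPM. The count of chemokines that fell was 0 without Tat-Senicapoc replicate 3, Senicapoc replicate 2 or Senicapoc replicate 3.

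Of 21 cytokines tested, 8 rose and 0 fell. Il1rn, the antagonist of the interleukin-1 receptor, was at 1.37, 2.44 and 1.54 CPM in Senicapoc and 35.3, 59 and 45.6 CPM in Tat-Senicapoc cultures (log2 fold change 4.37 ± 0.54 (SE), limma FDR 6.94e-07). Il1b, which that antagonist opposes, was at 4.61, 3.25 and 3.84 CPM in Senicapoc and 33, 52.8 and 49.5 CPM in Tat-Senicapoc cultures (log2 fold change 3.36 ± 0.50 (SE), limma FDR 1.72e-05). In both genes all Tat-Senicapoc libraries were at least several times above the Senicapoc libraries. Il18, processed by the inflammasome, rose with a log2 fold change of 1.72, FDR 0.00378 (limma), and Ebi3, a subunit of interleukin-27 and interleukin-35, with one of 1.30, FDR 0.000775. Il10, an anti-inflammatory cytokine, was close to the limit of detection, at 0.0334, 0.0387 and 0 CPM in Senicapoc and 0.248, 0.292 and 0.901 CPM in Tat-Senicapoc cultures (log2 fold change 0.84 ± 0.25 (SE), limma FDR 0.0168), and Il10 did not pass without Tat-Senicapoc replicate 3 and Senicapoc replicates 1 and 3 in turn (limma FDR 0.051 to 0.184). Il1a was at 2.01, 1.93 and 1.89 CPM in Senicapoc and 4.12, 4.72 and 5.27 CPM in Tat-Senicapoc cultures and Il6 at 0.234, 1.51 and 0.172 CPM in Senicapoc and 1.39, 3.02 and 2.57 CPM in Tat-Senicapoc cultures. Their limma FDR values of 0.0599 and 0.0502 were above the threshold. Tnf was at 0 CPM in 5 of the 6 libraries and at 0.0487 CPM, the value of 1 read, in Tat-Senicapoc replicate 2, and was not tested. The count of cytokines that rose was 5 without Tat-Senicapoc replicate 3, 5 without Senicapoc replicate 1 and 5 without Senicapoc replicate 3, and 1 fell without Senicapoc replicate 1.

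Genes of pattern recognition and NF-kB signalling rose in 23 of 34 tested and fell in 0. Birc3, an inhibitor of apoptosis that acts below the TNF receptors, was at 4.01, 17.9 and 5.15 CPM in Senicapoc and 68.8, 100.1 and 103 CPM in Tat-Senicapoc cultures (log2 fold change 3.53 ± 0.52 (SE), limma FDR 1.15e-05). Nfkbiz, a nuclear IkB protein needed for a second wave of NF-kB targets, was at 8.76, 15.2 and 9.23 CPM in Senicapoc and 108, 121 and 116 CPM in Tat-Senicapoc cultures (log2 fold change 3.37 ± 0.31 (SE), limma FDR 2.77e-09). The libraries of each group lay close together for Nfkbiz. Tlr1, a receptor for bacterial lipoproteins, was at 1.34, 2.01 and 1.24 CPM in Senicapoc and 11.6, 25.2 and 20.7 CPM in Tat-Senicapoc cultures (log2 fold change 3.23 ± 0.56 (SE), limma FDR 0.000139). Cd14, the coreceptor for lipopolysaccharide, was at 10.9, 11.1 and 12.9 CPM in Senicapoc and 36.3, 131 and 133 CPM in Tat-Senicapoc cultures (log2 fold change 2.83 ± 0.64 (SE), limma FDR 0.00227), and Tat-Senicapoc replicate 1 was the lowest of its group. The count was 15 without Tat-Senicapoc replicate 3 and 15 without Senicapoc replicate 1.

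The start sites of some of these genes hold letters like those that NF-kB binds. Promoters were taken from RefSeq (build GRCr8) for the 10481 tested genes whose symbol matched 1 promoter, and the 250 bases before the start were searched on both strands. 6 spellings were searched, all with the fold changes already known. Of these, 5 were of the kB type, which overlap one another, and 1 of the type that interferon regulatory factors bind. The stretches below, 5′ to 3′ on the strand of the gene, are those of the named risers that hold GGGANTTTCC, with the match, on either strand, in capitals. They lie at chr14:17596461-17596540 (minus strand), chr11:58251673-58251720 (plus strand), chr4:27054903-27054982 (minus strand) and chr12:6508619-6508698 (plus strand).
Cxcl6: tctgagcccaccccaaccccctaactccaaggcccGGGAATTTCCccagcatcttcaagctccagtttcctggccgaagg
Nfkbiz: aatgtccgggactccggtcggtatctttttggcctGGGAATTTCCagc
Steap4: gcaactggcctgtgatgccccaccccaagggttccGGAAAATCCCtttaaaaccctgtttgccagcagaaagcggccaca
Retn: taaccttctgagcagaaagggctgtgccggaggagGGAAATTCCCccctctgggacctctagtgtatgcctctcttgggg
The match lay 88 bases before the start in Cxcl6, 13 in Nfkbiz, 178 in Steap4 and 120 in Retn, counted to its first base. GGGANTTTCC was found in 1.47% of the 1222 matched promoters of genes called higher, 0.351% of the 569 of genes called lower, 0.487% of those of all genes tested and 0.314% of all 33469 promoters. The other 4 spellings of the kB type gave the same order of higher above all tested: GGGAATTTCC 0.655 and 0.162%, GGGANNTTCC 2.86 and 1.33%, GGGANNNTCC 5.81 and 4.32%, and GGGNNNTTCC 9.25 and 5.72%. Over all promoters these 4 were found in 0.0687, 1.08, 3.38 and 4.53%, and in those of genes called lower in 0.176, 1.41, 3.51 and 4.75%. The share in genes called lower was thus above all tested for GGGAATTTCC and GGGANNTTCC and below it for the others. Some of these shares rest on few promoters. Of the 569 of genes called lower, GGGAATTTCC was in 1, GGGANTTTCC in 2 and GGGANNTTCC in 8. Of the 1222 of genes called higher, GGGAATTTCC was in 8 and GGGANTTTCC in 18. These shares are descriptions and were not tested, and most genes that rose held none of the letters in this window.

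Complement, the cascade that tags and lyses targets, rose in 11 of 22 genes tested and fell in 2. Cfb, which starts the amplification loop of the alternative pathway, was at 58.5, 180.1 and 77.6 CPM in Senicapoc and 5118, 6572 and 5399 CPM in Tat-Senicapoc cultures (log2 fold change 5.91 ± 0.54 (SE), limma FDR 2.58e-09). C3, on which all pathways converge, was at 403, 859 and 545 CPM in Senicapoc and 3106, 5237 and 6369.6 CPM in Tat-Senicapoc cultures (log2 fold change 3.03 ± 0.45 (SE), limma FDR 1.65e-05). Both were abundant already without Tat and the groups were apart. Serping1, the inhibitor of C1, rose with a log2 fold change of 3.83, FDR 3.59e-08 (limma) and the protease C1s with one of 2.25, FDR 6.10e-05. The genes that fell were Cfd, at 41.1, 37.1 and 41.7 CPM in Senicapoc and 16, 18.9 and 18.8 CPM in Tat-Senicapoc cultures (log2 fold change -1.14 ± 0.33 (SE), limma FDR 0.0161), and Cd59, which blocks the membrane attack complex, at 181, 124 and 194 CPM in Senicapoc and 118, 102 and 113 CPM in Tat-Senicapoc cultures (log2 fold change -0.56 ± 0.14 (SE), limma FDR 0.00675). Cfd did not pass without Senicapoc replicates 1 and 3 in turn (limma FDR 0.0507 to 0.0581), and Cd59 did not pass without Senicapoc replicates 1 and 3 in turn (limma FDR 0.0544 to 0.0633), so that 0 genes were lower without either library.

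Interferon-stimulated genes rose in 15 of 36 tested and fell in 0. Irf7, the factor that amplifies interferon production, was at 7.44, 52.3 and 17.7 CPM in Senicapoc and 194, 193 and 222 CPM in Tat-Senicapoc cultures (log2 fold change 3.37 ± 0.59 (SE), limma FDR 0.000145). Ifit3, which restrains viral translation, was at 0.702, 23.8 and 2.37 CPM in Senicapoc and 69.1, 43 and 46 CPM in Tat-Senicapoc cultures (log2 fold change 3.57 ± 0.83 (SE), limma FDR 0.00292). In both, Senicapoc replicate 2 was several times above the other Senicapoc libraries. Oas2, an activator of RNase L, was at 0.234, 7.31 and 1.75 CPM in Senicapoc and 13.8, 24.8 and 17.7 CPM in Tat-Senicapoc cultures (log2 fold change 3.00 ± 0.76 (SE), limma FDR 0.0065), and its relative Oasl at 0.602, 12.1 and 0.806 CPM in Senicapoc and 13, 15.6 and 15 CPM in Tat-Senicapoc cultures (log2 fold change 2.51 ± 0.78 (SE), limma FDR 0.024). Ifit3 did not pass without Senicapoc replicate 1 (limma FDR 0.0537), Oas2 did not pass without Senicapoc replicate 1 (limma FDR 0.0908), and Oasl did not pass without Tat-Senicapoc replicates 2 and 3 and Senicapoc replicates 1 and 3 in turn (limma FDR 0.0738 to 0.17). The count was 18 without Senicapoc replicate 2 and 8 without Tat-Senicapoc replicate 2, 9 without Tat-Senicapoc replicate 3, 3 without Senicapoc replicate 1 and 9 without Senicapoc replicate 3. The summed signal of the list was 849 to 2581 CPM in Senicapoc, the highest in replicate 2, and 2475 to 2775 CPM in Tat-Senicapoc libraries, so that the sums overlapped. Irf7 and Ifit3 hold GAAANNGAAA, the spelling of the interferon type, before their starts, in capitals here, at chr1:205800048-205800127 (minus strand) and chr1:241527247-241527325 (plus strand).
Irf7: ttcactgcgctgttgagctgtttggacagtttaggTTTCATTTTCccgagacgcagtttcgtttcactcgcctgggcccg
Ifit3: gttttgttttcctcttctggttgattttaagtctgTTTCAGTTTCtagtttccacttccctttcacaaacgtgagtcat
Of 56 named genes called higher and matched to a promoter, Cybb and Fcgr3a hold these letters as well. They were found in 4.91% of promoters of genes called higher, 1.23% of those called lower, 2.66% of those of all genes tested and 3.41% of all promoters.

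Antigen presentation rose in 18 of 25 genes tested, with a median log2 fold change of 1.73, and fell in 0. Cd74, the invariant chain that guards the groove of MHC class II, was at 1.54, 4.37 and 0.892 CPM in Senicapoc and 85.2, 100.2 and 108 CPM in Tat-Senicapoc cultures (log2 fold change 5.35 ± 0.67 (SE), limma FDR 1.05e-06). The class II genes RT1-Da, at 0.535, 1.39 and 0.377 CPM in Senicapoc and 15.8, 13.5 and 10.3 CPM in Tat-Senicapoc cultures (log2 fold change 3.50 ± 0.48 (SE), limma FDR 4.55e-06), RT1-Db1 (3.42, FDR 1.05e-06) and RT1-Ba (3.10, FDR 2.36e-05) rose with it from mean levels below 1 CPM in Senicapoc cultures. MHC genes are a family of near-identical copies, and the division of reads between them is uncertain.

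Genes of immunometabolism and eicosanoids rose in 11 of 19 tested and fell in 0. Acod1, which makes itaconate from aconitate, was at 0.0669, 0.155 and 0.206 CPM in Senicapoc and 4.37, 22 and 14.4 CPM in Tat-Senicapoc cultures (log2 fold change 4.20 ± 0.82 (SE), limma FDR 0.000558). The rise was seen in each library and was smallest in Tat-Senicapoc replicate 1. Sod2, the mitochondrial superoxide dismutase, was at 132, 542 and 143 CPM in Senicapoc and 2358, 2985 and 3119 CPM in Tat-Senicapoc cultures (log2 fold change 3.69 ± 0.44 (SE), limma FDR 3.55e-07). Ptges, the inducible prostaglandin E synthase, was at 0.334, 1.59 and 0.377 CPM in Senicapoc and 7.94, 10.9 and 5.54 CPM in Tat-Senicapoc cultures (log2 fold change 2.86 ± 0.56 (SE), limma FDR 0.000554), and the transglutaminase Tgm2 rose as well (log2 fold change 2.40, FDR 0.000556, limma).

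Of 25 purinergic receptors and phosphodiesterases, 7 rose and 0 fell, against 10.8% and 5.15% of all genes, with a median log2 fold change of 0.068. P2ry6, the UDP receptor by which microglia take up debris, was at 6.05, 11.4 and 9.26 CPM in Senicapoc and 44.4, 98.6 and 83.1 CPM in Tat-Senicapoc cultures (log2 fold change 2.98 ± 0.48 (SE), limma FDR 4.35e-05). P2ry2, a receptor for ATP and UTP, was at 1.74, 2.13 and 0.995 CPM in Senicapoc and 7.0, 13.5 and 8.96 CPM in Tat-Senicapoc cultures (log2 fold change 2.27 ± 0.29 (SE), limma FDR 1.45e-06). P2rx4, an ATP-gated channel, was at 36.7, 45.6 and 38.2 CPM in Senicapoc and 64.9, 101 and 89.1 CPM in Tat-Senicapoc cultures (log2 fold change 1.05 ± 0.24 (SE), limma FDR 0.00275). The groups of these 3 genes did not overlap. Pde4b, the phosphodiesterase that lowers cyclic AMP in inflammatory cells, is in the list too and was at 35.5, 48.3 and 32 CPM in Senicapoc and 84.7, 83.1 and 68.3 CPM in Tat-Senicapoc cultures (log2 fold change 1.04 ± 0.25 (SE), limma FDR 0.00458). P2ry14 had 1.28, FDR 0.0283 (log2 fold change and limma FDR), but P2ry14 did not pass without Tat-Senicapoc replicates 2 and 3 and Senicapoc replicates 1, 2 and 3 in turn (limma FDR 0.055 to 0.147). The count was 4 without Tat-Senicapoc replicate 3 and 4 without Senicapoc replicate 3, and 1 gene fell without Senicapoc replicate 2. Vasp, an actin regulator outside the lists, rose from 43.5, 34.1 and 40.8 to 78, 166 and 139 CPM (log2 fold change 1.62 ± 0.39 (SE), limma FDR 0.00412).

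Leukocyte adhesion genes rose in 10 of 14 tested and fell in 0, or 1 without Senicapoc replicate 2. Itgal, the alpha chain of LFA-1, was at 16, 42.4 and 18.4 CPM in Senicapoc and 198, 332 and 274 CPM in Tat-Senicapoc cultures (log2 fold change 3.47 ± 0.56 (SE), limma FDR 5.10e-05). Its partner Itgb2 (2.11, FDR 0.00125) and Itgax (2.25, FDR 0.000934), the chain of CD11c, rose too. Of 20 matrix proteases and inhibitors 5 rose and 0 fell, against 10.8% and 5.15% of all genes, with a median log2 fold change of 0.22. Among the 5 was the gelatinase Mmp9, at 2.91, 3.09 and 2.44 CPM in Senicapoc and 34.5, 22.5 and 40.1 CPM in Tat-Senicapoc cultures (log2 fold change 3.28 ± 0.55 (SE), limma FDR 8.38e-05). Timp1, an inhibitor of metalloproteases (1.99, FDR 1.90e-05), and Plaur, the urokinase receptor (1.28, FDR 0.00593), were called as well, although Plaur did not pass without Tat-Senicapoc replicate 3 (limma FDR 0.054). The count of matrix genes was 3 without Tat-Senicapoc replicate 3, and 2 fell without Senicapoc replicate 2.

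Myeloid genes rose with Tat. Of 22 markers tested 14 rose and 0 fell, with a median log2 fold change of 1.58, and their summed signal was 846 to 1402 CPM in Senicapoc and 2188 to 3801 CPM in Tat-Senicapoc libraries, without overlap. In bulk RNA, more cells of a type and more RNA per cell cannot be told apart. Rac2, a GTPase of the NADPH oxidase, was at 26.7, 40.7 and 29.1 CPM in Senicapoc and 160.1, 304 and 263 CPM in Tat-Senicapoc cultures (log2 fold change 2.87 ± 0.42 (SE), limma FDR 1.33e-05). Cybb, the catalytic subunit of that oxidase, was at 68.3, 76.3 and 77.1 CPM in Senicapoc and 259.8, 517 and 496 CPM in Tat-Senicapoc cultures (log2 fold change 2.45 ± 0.41 (SE), limma FDR 8.06e-05). Its subunit Ncf4 (2.57, FDR 4.47e-05) and the Fc receptor Fcgr3a (2.7, FDR 0.000406) were higher as well. The groups of these genes were apart, and the count was 9 without Tat-Senicapoc replicate 2 and 9 without Senicapoc replicate 1. The part of the myeloid signal in the rise of the immune genes was not tested.

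Homeostatic microglia genes rose in 5 of 15 tested and fell in 0. Siglec5 was at 11.6, 7.54 and 9.47 CPM in Senicapoc and 30.5, 56.9 and 52.4 CPM in Tat-Senicapoc cultures (log2 fold change 2.20 ± 0.48 (SE), limma FDR 0.00183). Tmem119, a marker of resident microglia, was at 4.58, 12.6 and 5.87 CPM in Senicapoc and 15.7, 29.4 and 25.4 CPM in Tat-Senicapoc cultures (log2 fold change 1.63 ± 0.50 (SE), limma FDR 0.0224). Tmem119 did not pass without Tat-Senicapoc replicates 2 and 3 and Senicapoc replicates 1 and 3 in turn (limma FDR 0.0759 to 0.13). The fructose transporter Slc2a5 (1.52, FDR 0.0492) and the adhesion glycoprotein Selplg (1.24, FDR 0.0468) were close to the threshold. Slc2a5 did not pass without Tat-Senicapoc replicates 2 and 3 and Senicapoc replicates 1, 2 and 3 in turn (limma FDR 0.0769 to 0.192), and Selplg did not pass without Tat-Senicapoc replicates 2 and 3 and Senicapoc replicates 1, 2 and 3 in turn (limma FDR 0.0522 to 0.217). The count was 2 without Tat-Senicapoc replicate 2, 2 without Tat-Senicapoc replicate 3, 2 without Senicapoc replicate 1, 3 without Senicapoc replicate 2 and 2 without Senicapoc replicate 3. Of 17 genes of disease-associated microglia 6 rose and 0 fell: cholesterol 25-hydroxylase Ch25h (2.99, FDR 9.74e-06), the cystatin Cst7 (2.62, FDR 0.000432), the chemokine Ccl6 (2.50, FDR 0.000129) and the inhibitory receptor Lilrb4 (2.16, FDR 2.21e-05) led. Cst7 was uneven among the Tat-Senicapoc libraries, at 10.3, 2.48 and 1.4 CPM.

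Border macrophages, which sit in the meninges and around vessels, had 1 gene up and 2 down of 11 tested, against 10.8% and 5.15% of all genes. The median log2 fold change of the list was 0.19, or -0.027 without Senicapoc replicate 2. Members that were not called went both ways, as Ms4a7 (1.37), Colec12 (0.62), Folr2 (0.50), Stab1 (-0.90) and Lyve1 (-0.14). Pf4, a chemokine that border macrophages express, was at 71.6, 49.3 and 67.2 CPM in Senicapoc and 16.9, 21.6 and 27.3 CPM in Tat-Senicapoc cultures (log2 fold change -1.50 ± 0.36 (SE), limma FDR 0.00421). The lectin Cd209f was at 10.8, 19.95 and 16.1 CPM in Senicapoc and 1.44, 1.32 and 7.88 CPM in Tat-Senicapoc cultures (log2 fold change -2.34 ± 0.83 (SE), limma FDR 0.0492). Cd209f did not pass without Tat-Senicapoc replicates 1 and 2 and Senicapoc replicates 1, 2 and 3 in turn (limma FDR 0.0832 to 0.199). The lectin Clec10a was higher (1.59, FDR 0.0363), but Clec10a did not pass without Tat-Senicapoc replicates 1, 2 and 3 and Senicapoc replicates 1 and 3 in turn (limma FDR 0.0567 to 0.157). Fcna, a ficolin that is in no list, fell from 71.4, 143 and 63.3 to 33.7, 23.1 and 24.7 CPM (log2 fold change -1.67 ± 0.41 (SE), limma FDR 0.0045). The count of genes that fell was 1 without Tat-Senicapoc replicate 1, 1 without Tat-Senicapoc replicate 2, 1 without Senicapoc replicate 1, 1 without Senicapoc replicate 2 and 1 without Senicapoc replicate 3.

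Cell cycle genes rose in 12 of 18 tested and fell in 0. Mki67, which marks dividing cells, was at 10.5, 15.5 and 13 CPM in Senicapoc and 36, 95.7 and 79.2 CPM in Tat-Senicapoc cultures (log2 fold change 2.29 ± 0.47 (SE), limma FDR 0.000919). Mcm5, a subunit of the replicative helicase, was at 6.39, 8.62 and 8.61 CPM in Senicapoc and 15.7, 45.9 and 35.2 CPM in Tat-Senicapoc cultures (log2 fold change 1.85 ± 0.46 (SE), limma FDR 0.00528). For both, Tat-Senicapoc replicate 1 was the lowest of its group. Top2a had 1.66, FDR 0.0447 and Ccna2 1.62, FDR 0.0253 (log2 fold change and limma FDR). Mcm5 did not pass without Tat-Senicapoc replicate 2 (limma FDR 0.0525), Top2a did not pass without Tat-Senicapoc replicates 2 and 3 and Senicapoc replicates 1, 2 and 3 in turn (limma FDR 0.0549 to 0.206), and Ccna2 did not pass without Tat-Senicapoc replicates 2 and 3 and Senicapoc replicate 1 in turn (limma FDR 0.0988 to 0.185). The count was 3 without Tat-Senicapoc replicate 2, 5 without Tat-Senicapoc replicate 3, 6 without Senicapoc replicate 1 and 7 without Senicapoc replicate 3.

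**Figure D2:**
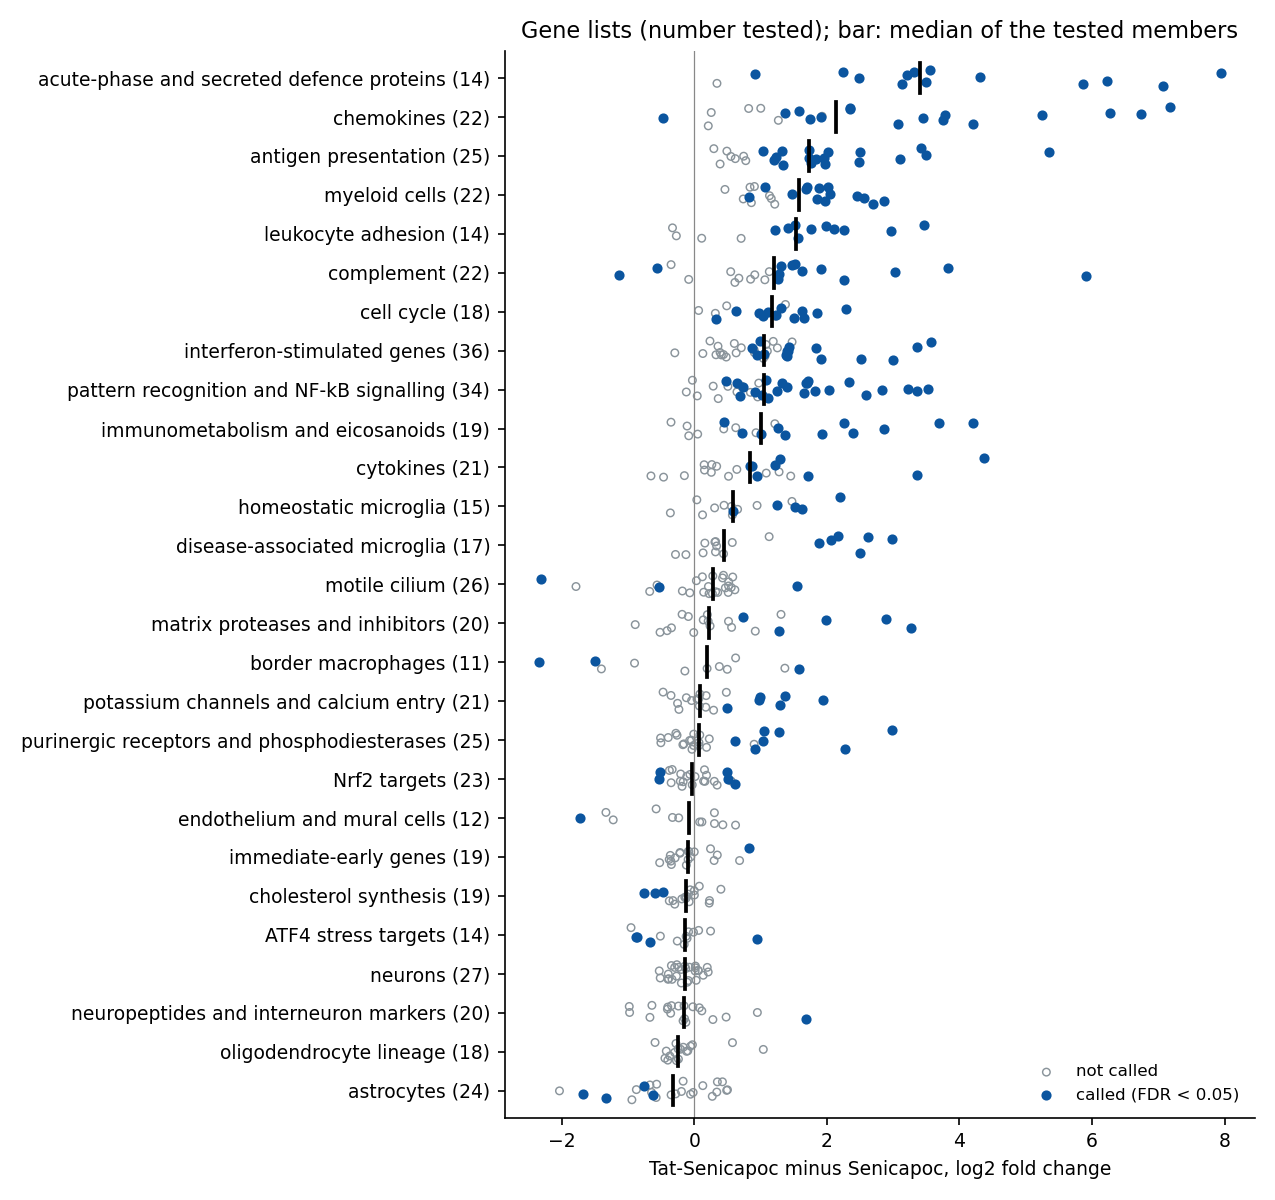
Log2 fold change of Tat-Senicapoc against Senicapoc for the tested members of 27 gene lists, 1 point per gene, filled where the limma FDR is under 0.05, with the median of each list as a bar. The medians run from -0.31 in astrocyte genes to 3.40 in acute-phase and secreted defence genes.

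Among genes that fell, several are known from astrocytes. Of 24 astrocyte markers 4 fell and 0 rose, against 5.15% and 10.8% of all genes, with a median log2 fold change of -0.31. Markers that were not called went both ways, as Acsbg1 (0.49), Grm3 (0.50) and Gja1 (-0.64). Ntsr2, a neurotensin receptor of astrocytes, was at 159.9, 54 and 154 CPM in Senicapoc and 34.8, 36.1 and 31.7 CPM in Tat-Senicapoc cultures (log2 fold change -1.67 ± 0.43 (SE), limma FDR 0.00708), but Ntsr2 did not pass without Senicapoc replicate 1 (limma FDR 0.0629). S100b was at 2005, 484 and 1949 CPM in Senicapoc and 317, 627 and 599 CPM in Tat-Senicapoc cultures (log2 fold change -1.33 ± 0.43 (SE), limma FDR 0.0308), and Senicapoc replicate 2 lay below 2 of the 3 Tat-Senicapoc libraries. S100b did not pass without Tat-Senicapoc replicates 1 and 3 and Senicapoc replicates 1 and 3 in turn (limma FDR 0.0532 to 0.199). Slc6a11, which takes up GABA, was at 27.2, 19.2 and 28 CPM in Senicapoc and 13.2, 14.1 and 15.4 CPM in Tat-Senicapoc cultures (log2 fold change -0.76 ± 0.19 (SE), limma FDR 0.00545). The bicarbonate transporter Slc4a4 had -0.63, FDR 0.0172, but Slc4a4 did not pass without Tat-Senicapoc replicate 2 and Senicapoc replicates 1 and 3 in turn (limma FDR 0.072 to 0.105). The count was 1 without Senicapoc replicate 1, 8 without Senicapoc replicate 2 and 2 without Senicapoc replicate 3. The summed signal of the markers was 12517 to 20074 CPM in Senicapoc, the lowest in replicate 2, and 12779.5 to 15922 CPM in Tat-Senicapoc libraries, which overlap.

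Outside the macrophage genes, most of the largest falls were those of genes with low to moderate levels, while Ntsr2 and Acta2 had higher levels. Gmnc, a master regulator of multiciliated cells, was at 15.1, 7.66 and 15.5 CPM in Senicapoc and 2.53, 1.7 and 1.98 CPM in Tat-Senicapoc cultures (log2 fold change -2.32 ± 0.34 (SE), limma FDR 1.48e-05). Agt, angiotensinogen, an astrocyte product, was at 18.7, 4.83 and 16.9 CPM in Senicapoc and 2.53, 1.95 and 1.76 CPM in Tat-Senicapoc cultures (log2 fold change -2.25 ± 0.43 (SE), limma FDR 0.00047). The sulfotransferase Sult1d1 was at 24.6, 5.57 and 19.8 CPM in Senicapoc and 2.93, 2.19 and 2.84 CPM in Tat-Senicapoc cultures (log2 fold change -2.22 ± 0.48 (SE), limma FDR 0.00169). In Agt and Sult1d1 the lowest Senicapoc library was replicate 2, which was still above each Tat-Senicapoc library. Gfral, the receptor of GDF15, was at 5.05, 1.86 and 4.73 CPM in Senicapoc and 0.546, 0.585 and 0.135 CPM in Tat-Senicapoc cultures (log2 fold change -2.19 ± 0.46 (SE), limma FDR 0.0013). Tyrp1, a melanogenic enzyme, was at 3.24, 0.619 and 2.61 CPM in Senicapoc and 0.0992, 0.0974 and 0.27 CPM in Tat-Senicapoc cultures (log2 fold change -1.85 ± 0.42 (SE), limma FDR 0.00269), and the neuropeptide receptor Prlhr at 3.31, 1.16 and 3.36 CPM in Senicapoc and 0.198, 0.731 and 0.315 CPM in Tat-Senicapoc cultures (log2 fold change -1.71 ± 0.32 (SE), limma FDR 0.000358). Their Tat-Senicapoc levels were below 1 CPM. Acta2, smooth muscle actin, was at 276, 85.2 and 238 CPM in Senicapoc and 36.1, 67.9 and 62.8 CPM in Tat-Senicapoc cultures (log2 fold change -1.72 ± 0.53 (SE), limma FDR 0.0242), but Acta2 did not pass without Tat-Senicapoc replicates 1 and 3 and Senicapoc replicates 1 and 3 in turn (limma FDR 0.0527 to 0.14). It was the 1 gene that fell of 12 endothelium and mural cell markers, of which 0 rose, against 5.15% and 10.8% of all genes.

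Few markers of other cell types passed. None of 27 neuronal markers passed the limma test, and neither did any of 18 of the oligodendrocyte lineage, against 16% of all genes. At an unadjusted p under 0.05 there were 0 and 1. The neuronal marker with the largest change, Camk2a, was at 228, 183 and 226 CPM in Senicapoc and 162, 125 and 154 CPM in Tat-Senicapoc cultures (log2 fold change -0.53, FDR 0.364), and that of the oligodendrocyte lineage, the transcription factor Myrf, at 29.2, 39.4 and 30.2 CPM in Senicapoc and 73.1, 68.2 and 62.1 CPM in Tat-Senicapoc cultures (log2 fold change 1.04, FDR 0.0994). A p above the threshold does not show that these genes did not change. Of 20 neuropeptides and interneuron markers 1 rose, Pvalb (log2 fold change 1.69, FDR 0.0142), but Pvalb did not pass without Tat-Senicapoc replicate 1 and Senicapoc replicates 1 and 3 in turn (limma FDR 0.0563 to 0.0734), and 1 fell without Senicapoc replicate 2. Of 19 immediate-early genes 1 rose, Fosl2 (log2 fold change 0.83, FDR 0.011), but Fosl2 did not pass without Tat-Senicapoc replicate 2 and Senicapoc replicate 1 in turn (limma FDR 0.0852 to 0.0983), and 2 rose without Senicapoc replicate 2. Over all genes 10.8% rose and 5.15% fell, so 1 call in either of these lists is not a result about the list. Of 26 motile cilium genes 1 rose and 2 fell, against 10.8% and 5.15% of all genes, and their median log2 fold change was 0.28. Spag17, part of the axoneme, had 1.55, FDR 0.0173, but Spag17 did not pass without Tat-Senicapoc replicates 2 and 3 and Senicapoc replicate 1 in turn (limma FDR 0.0673 to 0.0773), and Rfx3, a regulator of ciliogenesis, fell by 0.54 on the log2 scale (limma FDR 0.00445).

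Metabolic and stress genes were called in both directions. Of 23 Nrf2 targets 3 rose and 2 fell, shares near the 10.8% and 5.15% of all genes tested. Ugdh, which makes UDP-glucuronate, was at 39.6, 36.4 and 39.1 CPM in Senicapoc and 47.2, 59 and 58.9 CPM in Tat-Senicapoc cultures (log2 fold change 0.51 ± 0.13 (SE), limma FDR 0.00706), and the exporter Abcc1 (0.50, FDR 0.00278) rose as well. Gclc, the catalytic subunit that makes glutathione's precursor, was at 155, 136 and 165 CPM in Senicapoc and 105, 109 and 103 CPM in Tat-Senicapoc cultures (log2 fold change -0.52 ± 0.10 (SE), limma FDR 0.000735). The glutathione transferase Gstm1 fell too (-0.53, FDR 0.0207), but Gstm1 did not pass without Tat-Senicapoc replicate 2 and Senicapoc replicate 3 in turn (limma FDR 0.067 to 0.0817). Nqo1 was at 61.2, 97.8 and 77.9 CPM in Senicapoc and 64.4, 80.9 and 84 CPM in Tat-Senicapoc cultures (log2 fold change -0.03, FDR 0.934) and Gstp1 at 168, 314 and 179 CPM in Senicapoc and 185, 174 and 142 CPM in Tat-Senicapoc cultures (-0.35, FDR 0.481), and neither passed. Of 19 genes of cholesterol synthesis 3 fell and 0 rose, against 5.15% and 10.8% of all genes, with a median log2 fold change of -0.12. Cyp51 was at 249.6, 322 and 253 CPM in Senicapoc and 132, 186 and 173 CPM in Tat-Senicapoc cultures (log2 fold change -0.75 ± 0.15 (SE), limma FDR 0.000665), Sc5d had -0.60, FDR 0.00444, and Msmo1 had -0.47, FDR 0.0271, but Msmo1 did not pass without Tat-Senicapoc replicate 1 and Senicapoc replicates 1 and 3 in turn (limma FDR 0.0634 to 0.14). Of 14 ATF4 stress targets 1 rose and 3 fell, against 10.8% and 5.15% of all genes, and each of these called genes passed by little. These were the stress factor Ddit3 (0.95, FDR 0.017), the serine synthesis genes Psat1 (-0.88, FDR 0.0412) and Phgdh (-0.66, FDR 0.0299), and Atf5 (-0.86, FDR 0.0231). Ddit3 did not pass without Tat-Senicapoc replicate 1 and Senicapoc replicates 1 and 3 in turn (limma FDR 0.0544 to 0.132). Psat1 did not pass without Tat-Senicapoc replicates 1, 2 and 3 and Senicapoc replicates 1 and 3 in turn (limma FDR 0.0776 to 0.228), and Phgdh did not pass without Tat-Senicapoc replicates 1, 2 and 3 and Senicapoc replicates 1 and 3 in turn (limma FDR 0.0677 to 0.197). Atf5 did not pass without Tat-Senicapoc replicates 2 and 3 and Senicapoc replicates 1 and 3 in turn (limma FDR 0.0744 to 0.127).

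Whether senicapoc altered the response was asked by setting it against the response without the compound, in libraries that the responses do not share. Between Tat and Control, 3382 of 15890 genes (21.3%) passed at a limma FDR below 0.05, of which 2318 were higher (14.6%) and 1064 lower (6.7%). Of the 1722 genes called higher under senicapoc, 1708 were also positive without it, and 1310 were called, which is 76.1% of the former list and 56.5% of the latter. Of the 818 called lower, 768 were negative without it, and 368 were called, 44.99% and 34.6% of the lists. Across genes the log2 fold changes had a Pearson r of 0.879 and a Spearman rho of 0.756 (15890 genes, which are not independent). None of the genes called in one comparison was called in the opposite direction in the other.

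**Figure D3:**
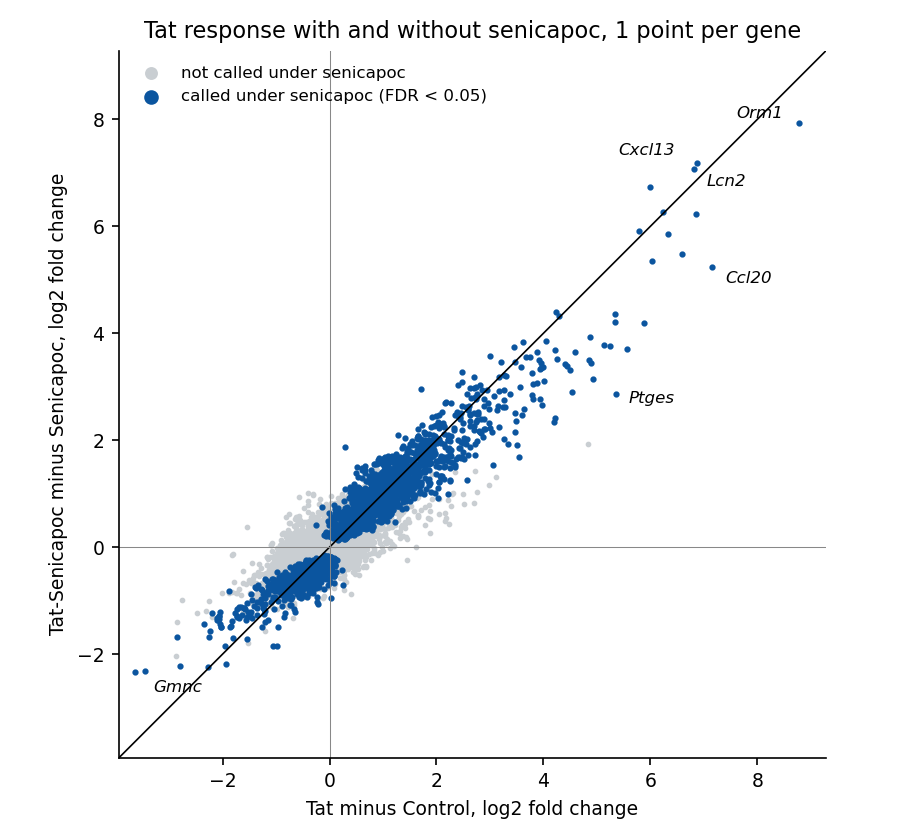
Log2 fold change of Tat against Control (x axis) and of Tat-Senicapoc against Senicapoc (y axis), 1 point per gene for 15890 genes, with genes called under senicapoc in blue and the line of equal responses. Of the 1722 genes called higher under senicapoc, 1708 lie right of 0 on the x axis; Ccl20 and Ptges lie below the line.

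The difference of the responses, tested gene by gene as an interaction contrast in limma, passed for 0 of 15890 genes (0%), and its lowest FDR was 0.844. An unadjusted p under 0.05 was reached by 762 genes (4.80%), 229 more positive and 533 more negative under senicapoc. The median gene had a 95% interval of ± 0.484 on the log2 scale, so that small differences could not be seen. The intervals of Ptges (-2.51, 95% interval -4.12 to -0.90) and Ccl20 (-1.92, 95% interval -3.46 to -0.37) lay below 0 before adjustment. Ptges was at 0.652, 0.834 and 0.227 CPM in Control and 31.8, 54.2 and 43.8 CPM in Tat cultures, all Tat libraries above all Tat-Senicapoc libraries. The intervals of Gmnc (1.14, 95% interval 0.15 to 2.13) and Gclc (0.38, 95% interval 0.08 to 0.67) lay above 0. None of these passed after adjustment over all genes. The gene with the lowest p, Gbp3, an interferon-induced GTPase named after its value was seen, was at 0, 0.193 and 0 CPM in Senicapoc and 0.248, 0.146 and 0.045 CPM in Tat-Senicapoc cultures, and at 0, 0.147 and 0 CPM in Control and 0.608, 1.06 and 1.13 CPM in Tat cultures (difference -1.17, 95% interval -1.76 to -0.59). For the largest rises the intervals were wide, as for Orm1 (-0.84, 95% interval -2.64 to 0.95) and Lcn2 (0.25, 95% interval -2.02 to 2.52). For Ccl2 the interval was -3.29 to 0.39, for Il1b -2.05 to 0.84 and for Acod1 -3.51 to 1.22, which does not show that the responses were alike.

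**Figure D4:**
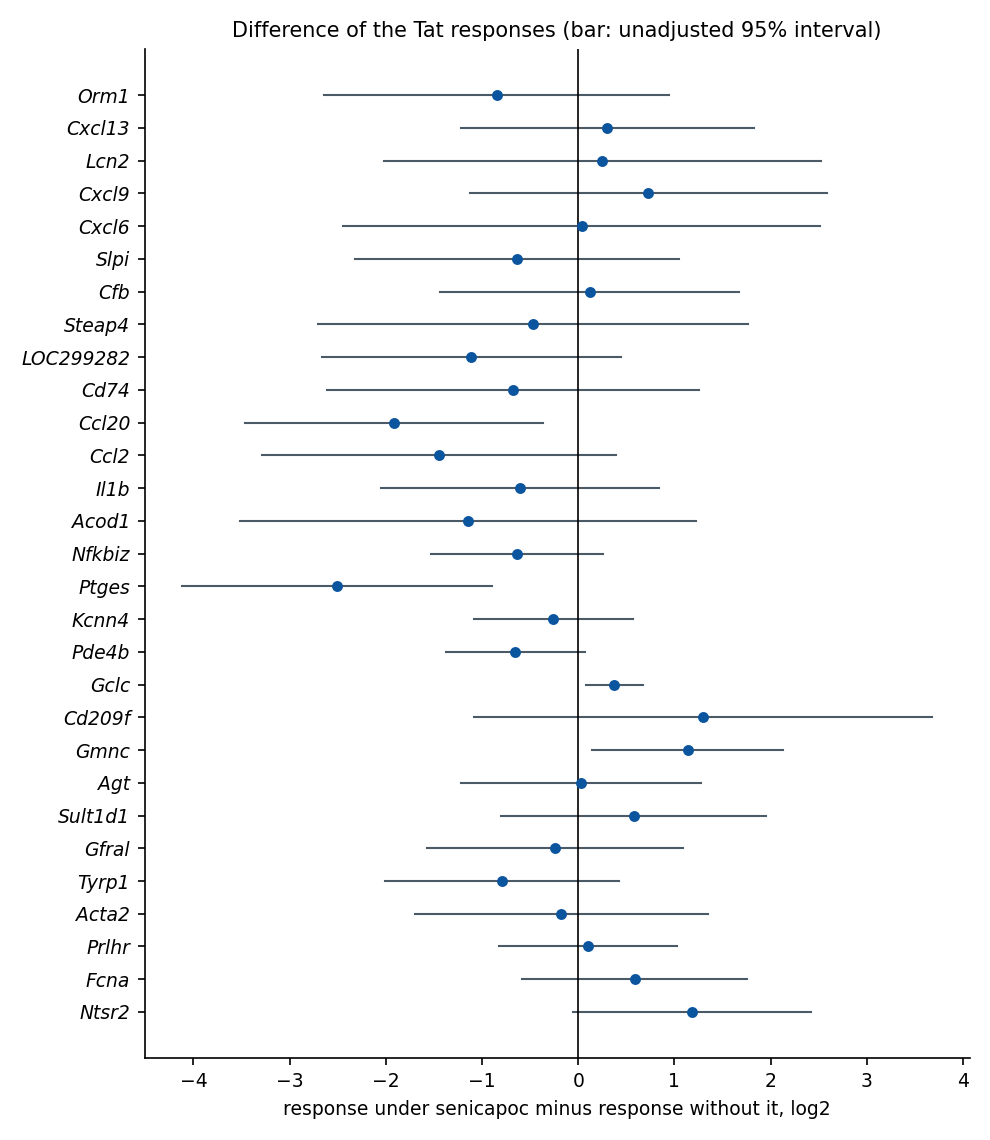
Difference of the Tat response under senicapoc from that without it, on the log2 scale, for the 20 largest changes and 9 other named genes, with unadjusted 95% intervals. No difference passed the adjusted test over all genes.

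The response under senicapoc was then set against that under 4OI. The compounds are not related in structure and were given at 1 and 250 µM, so that the values stand side by side without a match of dose. The difference passed for 9 of 15890 genes (0.0566%), all more positive under senicapoc, and 1238 genes reached an unadjusted p under 0.05. Cxcl13 was at 0.0736, 0.561 and 0 CPM in 4OI and 9.52, 2.47 and 4.48 CPM in Tat-4OI cultures (difference 4.20, 95% interval 2.68 to 5.73, limma FDR 0.0129). Retn, resistin, a secreted inflammatory protein, was at 0, 0 and 0.0343 CPM in Senicapoc and 4.71, 6.67 and 4.59 CPM in Tat-Senicapoc cultures, and at 0, 0 and 0 CPM in 4OI and 0.107, 0.538 and 0.0973 CPM in Tat-4OI cultures (limma FDR of the difference 5.57e-06). LOC691143 was at 15, 11.1 and 14.1 CPM in Senicapoc and 103, 79.5 and 105 CPM in Tat-Senicapoc cultures, and at 13.9, 14.3 and 14.1 CPM in 4OI and 19.6, 21.2 and 18.8 CPM in Tat-4OI cultures (difference 2.31, 95% interval 1.77 to 2.85, limma FDR 4.39e-06). The log2 fold changes were 7.18 under senicapoc and 6.88 without a compound for Cxcl13, 3.49 under senicapoc and 3.91 without a compound for Retn and 2.79 under senicapoc and 2.65 without a compound for LOC691143. The difference of the response under senicapoc from that without a compound passed the limma test for 0 of the 9 genes, and the lowest unadjusted limma p among them was 0.19, for Tnfsf10. Tnfrsf8, the receptor CD30, was at 0.10, 0.155 and 0.103 CPM in Senicapoc and 1.74, 1.75 and 1.71 CPM in Tat-Senicapoc cultures, and at 0.11, 0.172 and 0.167 CPM in 4OI and 0.107, 0.269 and 0 CPM in Tat-4OI cultures (difference 1.93, 95% interval 1.20 to 2.65, limma FDR 0.0129). Rarres1, a retinoic acid-induced gene, was at 74.1, 54.8 and 71.6 CPM in Senicapoc and 179.7, 137 and 177 CPM in Tat-Senicapoc cultures, and at 43.3, 40.4 and 39.1 CPM in 4OI and 31.8, 31.9 and 22.7 CPM in Tat-4OI cultures (difference 1.81, 95% interval 1.14 to 2.48, limma FDR 0.0129). Rarres1 was higher with Tat under senicapoc, and each Tat-4OI library was below each 4OI library. Mertk, a receptor by which phagocytes clear dying cells, was at 38.1, 35.1 and 36.8 CPM in Senicapoc and 49.4, 57 and 60.6 CPM in Tat-Senicapoc cultures, and at 47.3, 49.7 and 54.4 CPM in 4OI and 40.9, 34.8 and 31.9 CPM in Tat-4OI cultures (difference 1.08, 95% interval 0.68 to 1.49, limma FDR 0.0129), with the same opposite order. The ligand Tnfsf10, TRAIL, had a difference of 1.73, 95% interval 1.01 to 2.46, limma FDR 0.0422, the collagen Col9a3 one of 1.74, 95% interval 1.01 to 2.46, limma FDR 0.0422 and the splicing factor Cwc25 one of 0.56, 95% interval 0.33 to 0.79, limma FDR 0.0422. The count of differences was 3 without Tat-Senicapoc replicate 2 or 3, 5 without Senicapoc replicate 2, 4 without Senicapoc replicate 3, 2 without Tat-4OI replicate 3 and 4 without 4OI replicate 3.

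**Figure D5:**
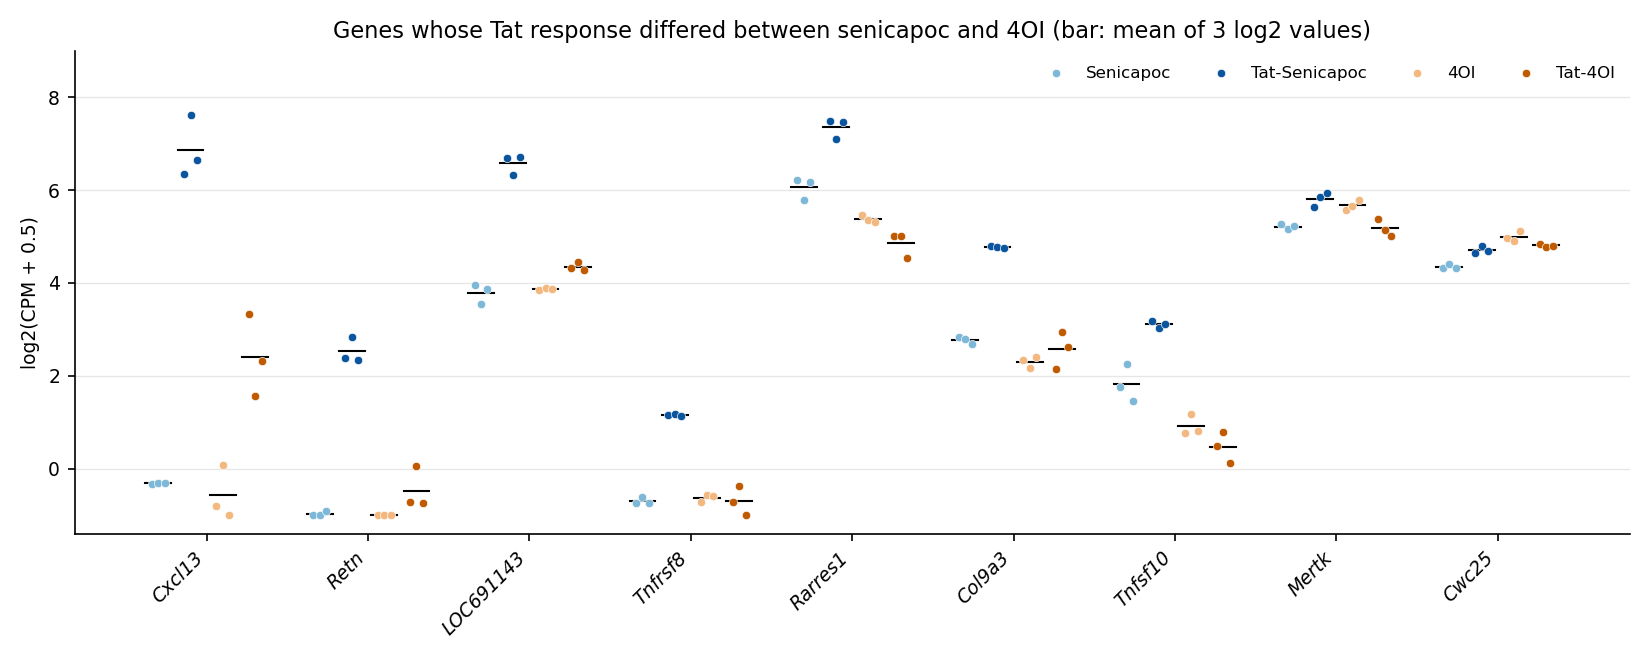
Expression of the 9 genes whose Tat response differed between senicapoc and 4OI, on the log2(CPM + 0.5) scale, in Senicapoc, Tat-Senicapoc, 4OI and Tat-4OI libraries, 1 point per library with the mean of 3 as a bar. The Tat-Senicapoc libraries of Cxcl13 lie between 81.1 and 196 CPM, and those of Tat-4OI between 2.47 and 9.52 CPM.

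With cocaine added, the leading genes stayed high. Orm1 was at 388, 559.5 and 403 CPM in Tat-Cocaine-Senicapoc libraries, Cxcl13 at 139, 172 and 60.9 CPM, Lcn2 at 9673, 12478 and 11792 CPM and Kcnn4 at 4.67, 5.97 and 5.08 CPM. All these values were above those of the Senicapoc libraries, and no test was made of them.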

How the data were processed

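RNA-seq was made from 48 rat primary cortical cultures in 16 groups of 3, mapped to groups by their labels. According to the methods and the submitters' processing notes, the authors trimmed paired-end reads (Trim Galore 0.4.5), aligned them (STAR 2.7.2) and counted unique reads per gene (featureCounts, Subread 1.5.3). The paper and the notes name different genome builds, so no positions of genes are taken from the files. The signal the authors deposited is CPM after TMM normalization in edgeR, summing to 930399 to 1046890 per library. The deposited fold changes, p-values and FDR of the authors and their group means (196 columns) were not used. From 85.0 to 87.3% of values were whole reads within 0.02 read, too few for a test of counts.

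Values were tested as log2(CPM + 0.5) with limma 3.58.1 in R 4.3.3 (lmFit, eBayes with a trend, 1 mean per group, Benjamini-Hochberg FDR under 0.05 over 15890 genes), checked on simulated data. A fold change on this scale understates that of low genes. In the 6 libraries, 0.5 CPM stood for 10.1 to 15.0 reads. Genes named are the 10 largest called rises and falls without overlap (at least 1 CPM in the higher group), up to 4 called genes per direction in each of 27 lists or, with none, the member with the largest change, Kcnn4 and the paper's genes, and called differences. A few of them are not reported here. The comparison, lists and motifs were chosen with earlier results of these data known. Alternatives were 2 pseudocounts, 2 filters, 2 scalings, the compared groups alone, no trend, a fold minimum, the replicate number as a block and leaving out each library.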

Additional observations from a re-analysis of the deposited data

Results flagged for a closer look

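The Tat response differed between senicapoc and 4OI in 9 genes, by the interaction test of limma over 15890 genes, and all 9 differences were more positive under senicapoc. On the log2 scale they were 4.20 for Cxcl13, 2.96 for Retn, 2.31 for LOC691143, 1.93 for Tnfrsf8, 1.81 for Rarres1, 1.74 for Col9a3, 1.73 for Tnfsf10, 1.08 for Mertk and 0.56 for Cwc25. The difference from the response to Tat without a compound passed in limma for 0 of these 9 genes (lowest unadjusted p 0.19), and there the log2 fold changes were 6.88 for Cxcl13 against 7.18 under senicapoc and 3.91 for Retn against 3.49. The value of Retn, which was at 0 in all 4OI and in 2 of 3 Senicapoc libraries, depends on the pseudocount. LOC691143 and Retn passed under each alternative that was run. The others failed at least 1, as Cxcl13 with a pseudocount of 0.1 CPM (3.74, limma FDR 0.163) and Cwc25 with the compared groups alone (0.56, limma FDR 0.155).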

How the results depend on the processing

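The Tat response under senicapoc held 2540 called genes. It held 1567 with the compared groups alone, 783 with an absolute log2 fold change of at least 1, and 1271 to 2680 without 1 library. The difference from the response without senicapoc was called for 0 genes under each alternative, leaving out any library included (0 to 0). The difference from the response under 4OI was called for 9 genes and for 2 to 13 without 1 library.

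The deviations of same-numbered Senicapoc and Tat-Senicapoc libraries correlated at −0.0577, 0.0127 and 0.408. Those of libraries with different numbers correlated at −0.373 to 0.234. Whether the replicate numbers mark a shared preparation or batch was not tested, and the main fit does not use them. With the replicate block, the response under senicapoc held 3354 genes, or 1261 with the block and the compared groups alone. The difference without the compound then held 0, and that from 4OI 22, or 32 with the block and the compared groups alone.

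Of 118 named genes tested 111 were called, 77 of them under every alternative other than leaving out a library, and 80 without each library. Most were named because they were called in the main test, often with the largest changes, so the 111 follows from the choice. Nqo1, which was not called, changed sign to 0.087 without Tat-Senicapoc replicate 1 and 0.136 without Senicapoc replicate 2, in a range of −0.20 to 0.136 over the libraries left out in turn. Of 459 list medians under the alternatives, 26 moved by more than 1 SD between replicates. Count tests (edgeR and DESeq2 on recovered reads) were not run, since too few values were whole reads. With 3 libraries per group, the cause of these changes was not tested.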
